A study of Mus musculus with 3 samples.

Results

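The cells described here are endothelial cells, which line blood vessels, from mouse brains that carried metastases. They numbered 344 of the 8443 cells used from metastasis-bearing brains and of the 11179 cells used in the whole series. They were chosen by measured values. The rule took the 454 used cells of the authors' cluster 6, a cluster of vascular cells, and kept those in which the mean value of Cldn5, Flt1, Pecam1 and Ly6c1 was above that of Rgs5, Vtn, Pdgfrb and Acta2, genes of pericytes and smooth muscle. Barcodes that stood in both deposited tables, 1138 in all and 68 in cluster 6, were dropped before the rule was applied. Values of these 8 genes in the chosen cells therefore describe the choice and are not tested.

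The study measured RNA, antibody tags and hashtags in single brain cells of C57Bl/6 mice, all female and 2 to 3 months old. Brain metastases had been started with E0771 mammary tumour cells, given through the carotid artery some 2 weeks before. The 4 metastasis-bearing brains were Cx3cr1+/- (heterozygous, 2 brains) or Cx3cr1-/- (homozygous, 2 brains), and each was represented by 1 hemisphere. There was no wild-type group, so the heterozygous brains, which carry 1 lost copy of the fractalkine receptor Cx3cr1, are the controls, and the Cx3cr1 defect is present in every cell of the animal. The 4 naive brains of the same 2 genotypes carried no metastases. Perfused brains were digested with enzymes and spun on a Percoll gradient that enriches immune cells, so endothelial cells were not a target of the preparation.

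Brain endothelial cells form the blood-brain barrier. Tight junctions built on claudin 5 seal the space between neighbouring cells, transporters such as Slc2a1 and Slco1a4 carry selected molecules across, and a basement membrane of collagen IV, laminin and nidogen holds endothelial cells and pericytes together. Arteries, capillaries and veins carry different gene sets along the vessel. When vessels sprout, tip cells at the front are known for genes such as Apln, Esm1 and Angpt2. Under inflammation, venous endothelial cells in particular display adhesion molecules that hold white blood cells.

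Each brain was marked before pooling with an antibody that carries a barcode of 15 bases, and every comparison below rests on which barcode a cell carried, so the 4 barcodes are shown, 5′ to 3′.
heterozygous brain 1: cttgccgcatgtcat
heterozygous brain 2: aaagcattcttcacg
homozygous brain 1: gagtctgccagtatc
homozygous brain 2: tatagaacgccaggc
Any 2 of them differed at 10 to 13 of the 15 positions. All 8 brains were sequenced as 1 pool, so the brains are the replicates, with 2 per genotype, and the cells of a brain are not.

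The brains held 140, 78, 85 and 41 endothelial cells, in the order heterozygous 1, heterozygous 2, homozygous 1 and homozygous 2, which is kept for all sets of 4 values below. The members carried 1122 to 123793 raw UMIs (unique molecular identifiers, which mark single RNA molecules) per cell, with medians of 6362, 6999, 10291 and 10885. The homozygous medians were the higher ones. Cells above 17227 raw UMIs, which is 2 times the median of all 344, made up 28 of 140, 13 of 78, 31 of 85 and 13 of 41. The T cell cluster of the same brains had medians of 4773, 5432, 5519 and 5450.0 raw UMIs. There too the homozygous medians were the higher ones, but by less. The microglia cluster had medians of 7850.5, 8928.5, 12596 and 8335 raw UMIs, and its genotypes overlapped. Results below were repeated in the 189 cells between 4307 and 17227 raw UMIs, where 72, 51, 46 and 20 cells remained with medians of 7137, 7029, 8614 and 8485. This range kept only 4 of the 35 cells with an Apln UMI. It thus changes which cells enter as well as their depth, and it does not isolate the part of depth.

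**Figure D1:**
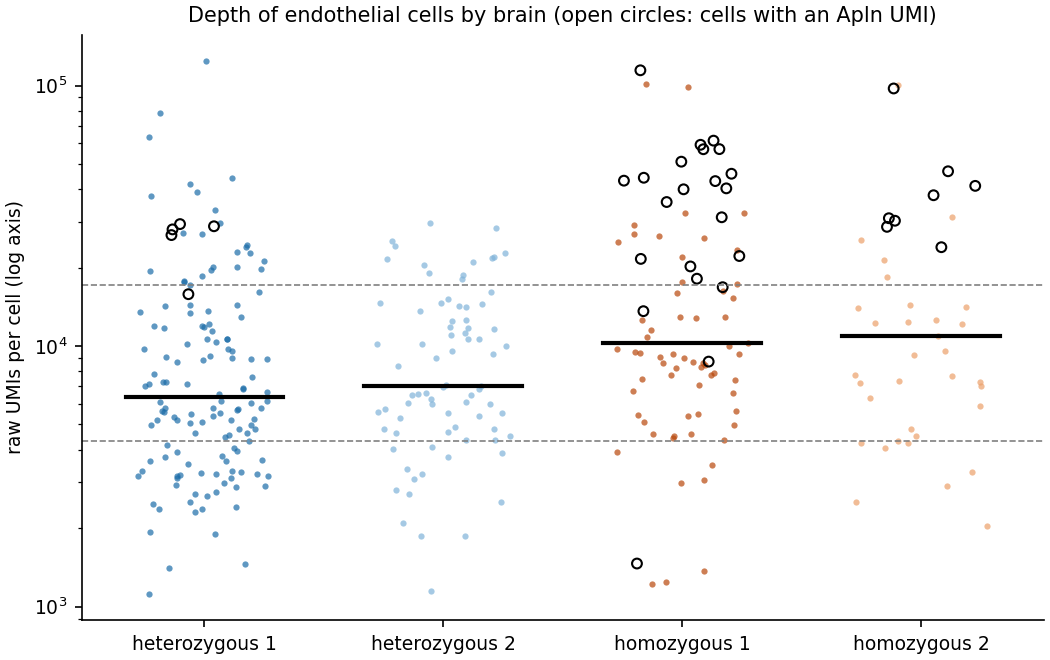
Raw UMIs per endothelial cell on a log axis in each of the 4 metastasis-bearing brains. Points are cells, black bars are medians, dashed lines mark 4307 and 17227 raw UMIs, and open circles are cells with an Apln UMI, 30 of 35 of which lie above the upper line.

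Endothelial cells made up 10.3% of the used cells of heterozygous brain 1 (95% Wilson interval 8.83 to 12.1), 2.99% in heterozygous brain 2 (2.40 to 3.71), 2.91% in homozygous brain 1 (2.36 to 3.58) and 2.64% in homozygous brain 2 (1.95 to 3.56). The intervals cover counting error only. The brain heterozygous 1 stood far above the other three, which lay close together. The homozygous mean minus the heterozygous mean was -3.89 percentage points (2.77% ± 0.189 and 6.66% ± 5.20, SD, n = 2 each). An exact two-sided permutation test gave p = 0.333, and no smaller p is possible with 2 brains per genotype. Without heterozygous brain 1 the difference was -0.216 points. Krt8-high cells, a large cluster of deep cells with epithelial keratin RNA, made up 17.2, 8.31, 55.9 and 42.1% of the same brains and lower every other share. With them left out of the denominator the endothelial shares were 12.5, 3.26, 6.58 and 4.56%, and the genotypes overlapped. The share of cells is that of a gradient made for immune cells and does not measure vessel density.

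The label was checked against genes and antibody tags. Cldn5, Flt1, Pecam1 and Ly6c1 were part of the rule, so their values describe the choice and do not check it. Of the 344 cells, 341 had a UMI of at least 3 of the markers Cldn5, Flt1, Pecam1, Ly6c1 and Slco1a4, and 235 had all 5. Cldn5, the main claudin of the barrier, stood at 2896, 4419, 4545 and 3643 CPM (corrected UMIs summed over the members of a brain and scaled to a total of 1000000). In the T cell cluster it stood at a mean of 2.13 CPM, and a Cldn5 UMI was found in 85.2% of the members against 1.17% of T cells. Slco1a4, an organic anion transporter outside the 8 genes of the rule, though among the genes of the clustered cells, stood at 1028, 1097, 1060 and 745 CPM. On the authors' antibody gates, which the rule did not use, 295 of 344 members (85.8%) were CD45-low and CD11b-negative, against 81.8% of the other cells of cluster 6, 0.153% of the microglia cluster and 8.66% of the T cell cluster. The gate took 120 of 140, 70 of 78, 70 of 85 and 35 of 41 members of the 4 brains. At 85.8 and 81.8% it hardly separated the members from the other cells of cluster 6. It thus does not check endothelial cells against pericytes or smooth muscle. The median difference between the endothelial and the mural mean was 2.45 on the natural log scale, with quartiles of 1.53 and 3.08. Just inside the rule lay cells at 0.0159 and 0.0525, just outside it 16 cells at exactly 0, 15 of which had no UMI of any of the 8 genes, and then cells at -0.0069 and -0.0114.

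RNA of other vessel cells was present. Rgs5, a pericyte gene, stood at 847, 1265, 792 and 827 CPM, against 889, 1129, 2957 and 255 CPM in the 110 other cells of cluster 6, and 157 members had a UMI of Rgs5 or Vtn. The 10 pericyte markers summed to 1738, 2493, 1740.0 and 1569 CPM, and none was at 0 in all brains. The 7 fibroblast markers summed to 305, 455, 20.1 and 24.1 CPM, and the 6 smooth muscle markers, led by Myl9, to 666, 774, 219 and 697. Pan-leukocyte markers, led by Fcer1g, summed to 312 to 514 CPM, microglia markers to 81.0 to 262, and monocyte and macrophage markers, led by Lyz2, to 141 to 403. The astrocyte list (led by Gja1) summed to 80.3 to 150 CPM, the neuron list (led by Stmn2) to 30.6 to 162, the choroid plexus list (led by Ttr) to 151 to 512, the lymphatic list (led by Flt4) to 62.3 to 144 and the Krt8-high list (led by Wfdc2) to 65.8 to 102. Stmn2 also stands in the arterial list used below. It had a UMI in 24.7% of the members, against 3.50% of the T cell cluster and 0.459% of the microglia cluster, so the neuron sum does not measure neuronal RNA. Oligodendrocyte, T and NK, B, neutrophil and erythroid lists, led by Cldn11, Trac, Cd79a, S100a9 and Hbb-bs, stayed under 37 CPM in every brain. Krt8 UMIs were found in 7 of the 85 deep members and in 90 of the 259 others, and Ptprc UMIs in 10 and 104. These are UMIs after the depth correction, which lowers the counts of deep cells, so the 2 shares cannot be compared.

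Among all genes, those with the largest ratio of endothelial cells to the highest other cluster or the other cells of cluster 6 were Ackr1, a chemokine-binding receptor of veins, and Plvap, the diaphragm protein of fenestrated vessels. Their log2 ratios were 5.05 and 4.89, and they describe the chosen cells. Cldn5 (4.53), Tmem252 (4.44), the adhesion receptor Adgrl4 (4.43), the transcription factor Sox18 (4.30), the venous amino acid transporter Slc38a5 (4.27) and the clotting protein Vwf (4.25) followed. Clec14a, Ptprb, Gpihbp1, Grrp1, Srarp, Pecam1, Scgb3a1, Kank3, Igfbp3, Apln, Ly6c1 and Slco1a4 completed the first 20, at 3.99 down to 3.60. Some of these genes sat in few of the cells: Ptprb had a UMI in 94.5% of the members and Adgrl4 in 91.6%, but Plvap in 23.5%, Gpihbp1 in 19.2% and Apln in 10.2%. The members thus differed among themselves.

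Cx3cr1 was checked first. In the microglia cluster it stood at 1363 and 1464 CPM in the heterozygous and at 114 and 31.6 CPM in the homozygous brains, the direction that the labels give. Endothelial cells held 41.6, 4.32, 12.4 and 4.02 CPM of it, with a UMI in 5.81% of the members and in 4.25% of the T cell cluster, and its log2 fold change was -0.62 (SE 0.54, adjusted p = 0.735). Cx3cl1, the membrane-bound ligand of Cx3cr1, which endothelial cells and neurons are known to make, stood at 43.4, 39.9, 32.5 and 38.2 CPM (log2 change -0.19 with SE 0.22, adjusted p = 0.803).

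The genotype comparison found 32 genes higher and 8 lower in endothelial cells of homozygous brains, among 8608 genes tested. These are 0.372% and 0.0929% of the genes tested. Of the 32 higher genes 5 stood in the basement membrane list (Col4a1, Col4a2, Lama4, Nid2 and Sparc), 2 in the VEGF, angiopoietin and tip cell list (Apln and Mcam) and 2 in the proliferation list (Top2a and Cdk1). Most of the others, among them Pdlim1, Nts, Upp1 and Tspan6, stood in no list, and the lower ones included the early response genes Ier3 and Gadd45g and the vasoconstrictor gene Edn1. All 40 had brains that did not overlap between genotypes, as had 22.8% of all tested genes in the higher and 19.5% in the lower direction. The median log2 fold change of all genes tested was 0.00, and 946 genes had an unadjusted p under 0.05. The count depended on which cells entered. With limma it was 0 in the cells of 4307 to 17227 raw UMIs (389 genes at an unadjusted p under 0.05), 0 without the 35 cells that held an Apln UMI, 0 in all cells of cluster 6, and 0 without the trend of the variance on the mean (911 at an unadjusted p under 0.05). It was 2 without homozygous brain 1 and 22 without homozygous brain 2, but 104 and 261 without heterozygous brain 2 and 1. A stricter rule for membership gave 114 genes.

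**Figure D2:**
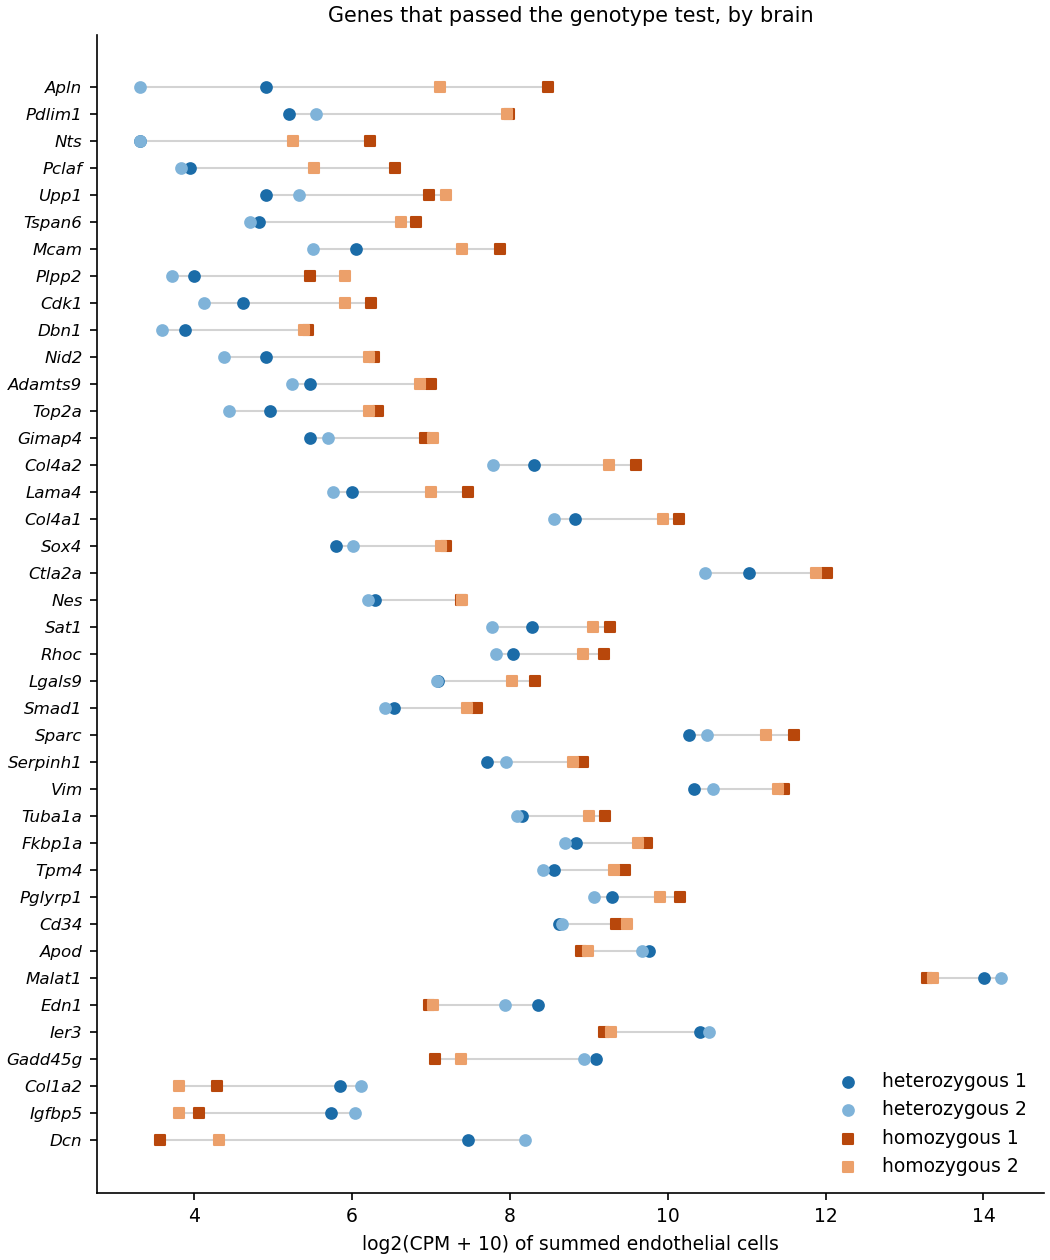
Level of each of the 40 genes that passed the genotype test, as log2 of CPM plus 10 in the summed endothelial cells of each brain (circles heterozygous, squares homozygous). In every row the circles and squares do not overlap; Apln spans the widest range among the higher and Dcn among the lower genes.

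Apln had the largest log2 fold change of the genes that rose. It belongs to the VEGF, angiopoietin and tip cell list. Apln, the peptide apelin that sprouting endothelium secretes, stood at 20.2, 0, 349 and 129 CPM. It was high in both homozygous brains and low or not found in the heterozygous ones, with a log2 fold change on the CPM plus 10 scale of 3.68 (SE 0.55, adjusted p = 0.0349). Its UMIs lay in 5 of 140, 0 of 78, 22 of 85 and 8 of 41 cells, which are 3.57, 0, 25.9 and 19.5%, against 0 of 1201 T cells. In homozygous brain 2, a single cell held 46.9% of the Apln UMIs. Between 4307 and 17227 raw UMIs, 1, 0, 3 and 0 cells had an Apln UMI, and the fold change there was 1.01. Mcam, an adhesion molecule of endothelium and pericytes, rose from 56.2 and 35.6 to 225 and 159 CPM (log2 change 1.86 with SE 0.24, adjusted p = 0.0309). Both homozygous values were above both heterozygous ones.

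Angpt2, which loosens contacts between endothelium and pericytes, was at 48.9, 9.71, 225 and 114 CPM (log2 change 2.33 with SE 0.48, adjusted p = 0.0899), and the apelin receptor Aplnr at 27.5, 42.1, 114 and 70.3 CPM (1.17 with SE 0.27, adjusted p = 0.128). The peptide Adm stood at 16.5, 5.40, 95.7 and 46.2 CPM (1.93 with SE 0.37, adjusted p = 0.0696). None of these passed, although the genotypes did not overlap. Esm1, a tip cell gene too, lay the other way at 147, 176, 58.4 and 104 CPM (log2 change -0.95 with SE 0.25, adjusted p = 0.186). Flt1, a VEGF receptor that was part of the rule, stood at 2424, 2135, 2340.1 and 2316 CPM. The main VEGF receptor Kdr was at 583, 553, 468 and 599 CPM and Igfbp3 at 877, 225, 852 and 1410.0; their genotypes overlapped. Nrp1, a co-receptor of VEGF, was at 501, 291, 139 and 416 CPM and overlapped as well. Of the 18 tested genes of this list 12 had a positive log2 fold change, 2 rose and none fell; the median was 0.79. It was 0.20 without homozygous brain 1 and 0.06 without the cells holding an Apln UMI.

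Among the lists, the basement membrane list held the most calls, 5. Col4a1 and Col4a2 code for the 2 collagen IV chains that twine into the same fibre of vascular basement membranes. Col4a1 stood at 443, 369, 1124 and 974 CPM, and its log2 fold change was 1.35 (SE 0.14, adjusted p = 0.0121). Col4a2 stood at 307, 210, 767 and 601 CPM, with a log2 fold change of 1.38 (SE 0.20, adjusted p = 0.0309). Both were high in both homozygous brains. The 2 genes lie head to head on mouse chromosome 8, and their RefSeq start sites (build GRCm38.p6) overlap within 22 bases, chr8:11312805-11312826, given here on the plus strand because the shared start region is what the pair has in common: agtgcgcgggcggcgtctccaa. Col4a2 runs to the right from the first of these bases and Col4a1 to the left from the last.

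Sparc, a collagen-binding matrix protein, rose from 1227 and 1433 to 3107 and 2424 CPM (log2 change 1.04 with SE 0.14, adjusted p = 0.0309). The laminin chain Lama4 rose from 54.4 and 44.3 to 168 and 119 CPM (1.36 with SE 0.22, adjusted p = 0.0448), and Nid2, the nidogen that links laminin and collagen IV, from 20.2 and 10.8 to 68.0 and 64.3 CPM (1.60 with SE 0.25, adjusted p = 0.0446). In none of the 3 did the genotypes overlap. Igfbp7 (3369, 2481, 4910.9 and 5817 CPM, adjusted p = 0.0570) and Lamb1 (23.2, 13.0, 110 and 64.3 CPM, adjusted p = 0.0529) did not pass. Sparcl1 was at 628, 717, 1214 and 868 CPM (adjusted p = 0.210). In all, 5 of 18 basement membrane genes rose and none fell, 15 had a positive log2 fold change, and the median was 0.80. In the cells of 4307 to 17227 raw UMIs the median was 0.35 with 14 of 18 positive, and 0 genes passed. Without the cells holding a UMI of the fibroblast genes Dcn or Col1a2 the median was 0.90, and without those holding Rgs5 or Vtn 1.07. Without the cells holding an Apln UMI it was 0.34. Pericytes and fibroblasts also make collagen IV, and the part of their RNA was not tested.

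In the proliferation list 2 genes rose. Top2a, which untangles chromosomes, stood at 21.4, 11.9, 70.8 and 64.3 CPM (log2 change 1.56 with SE 0.25, adjusted p = 0.0452), and the cyclin-dependent kinase Cdk1 at 14.7, 7.56, 66.0 and 50.2 CPM (1.70 with SE 0.27, adjusted p = 0.0445). The proliferation marker Mki67, at 11.6, 0, 58.4 and 42.2 CPM, did not pass (adjusted p = 0.0648). Tubb5, H2afz, Stmn1 and Hmgb2, the highest of the list in level, had log2 fold changes of 0.54, 0.58, 0.61 and 0.60 and did not pass. The log2 fold change was above 0 for all 22 tested genes of the list (median 0.80), and 2 rose. Cdk1 UMIs lay in 10, 4, 15 and 8 cells and Top2a UMIs in 12, 6, 14 and 7. In homozygous brain 2, 1 cell held 44% of the Cdk1 UMIs and 1 cell 43.8% of the Top2a UMIs. Cells above 17227 raw UMIs were 24 of the 37 cells with a Cdk1 UMI and 19 of the 39 with a Top2a UMI. In the cells of 4307 to 17227 raw UMIs, where 11 of the 22 genes could be tested, 7 were positive and the median was 0.00.

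The remaining large rises included genes of the actin skeleton. Pdlim1, a protein of actin fibres, stood at 26.9, 36.7, 245 and 241 CPM (log2 change 2.61 with SE 0.19, adjusted p = 0.00343), the smallest adjusted p of all genes. Its homozygous brains lay close together, far above both heterozygous ones. Its UMIs were found in 82 cells, 48 of them deep, that is above 2 times the median raw UMIs of all members. In homozygous brain 2, 1 cell held 31.7% of the Pdlim1 UMIs. In the middle range of raw UMIs defined above, the log2 fold change of Pdlim1 was 0.87. Dbn1, which bundles actin, rose by 1.67 on the log2 scale, Tspan6 by 1.95, the uridine phosphorylase Upp1 by 1.96, the lipid phosphatase Plpp2 by 1.82 and the DNA replication factor Pclaf by 2.14, each from 2 brains per genotype. In the same order, 30 of 39, 54 of 86, 49 of 77, 29 of 46 and 24 of 26 cells with a UMI were deep. In homozygous brain 2, 1 cell held 18.8, 47.7, 17.6, 16 and 44.4% of the UMIs. In the middle range of raw UMIs the log2 fold changes of Tspan6, Upp1 and Plpp2 were 0.45, 1.27 and 1.08. Dbn1 and Pclaf were not tested there. Nts, the peptide neurotensin, had 0 UMIs in both heterozygous brains and 65.1 and 28.1 CPM in the homozygous ones, at least 45.4-fold higher over the summed cells, against a floor of 3 counts over the heterozygous group. Those Nts counts came from 3 cells and 1 cell, and 95.6 and 100% of them from 1 cell of each brain. The 12 further genes that rose outside the groups described, shown in the plot of the 40 genes, had log2 fold changes of 0.85 to 1.58, with Vim (1279, 1516, 2846 and 2697 CPM), an intermediate filament gene, the highest of them in level.

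Among endothelial identity genes, Cd34, a sialomucin of the luminal surface, rose from 386 and 395 to 640.3 and 705 CPM (log2 change 0.77 with SE 0.12, adjusted p = 0.0452), and Ctla2a, a cathepsin inhibitor, from 2089 and 1411 to 4124 and 3768 CPM (1.19 with SE 0.17, adjusted p = 0.0309). Ly6a (2932, 3434, 3419 and 3087 CPM) overlapped between genotypes. Of the 32 pan-endothelial genes 2 rose and none fell, 22 were positive, and the median was 0.21.

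Barrier genes did not pass the test. None of 11 junction genes was called (median 0.19, 9 positive), with Esam at 738, 681, 957 and 994 CPM (adjusted p = 0.171), Cdh5, the adherens junction cadherin, at 378, 422, 706 and 574 (adjusted p = 0.108), F11r at 145, 158, 260.3 and 255 (adjusted p = 0.0780) and Tjp1 at 345, 312, 375 and 307 (adjusted p = 0.938). None of 24 barrier transporters passed either (median 0.34, 16 positive). Slc2a1, the glucose transporter, stood at 1799, 1288, 1864 and 1551 CPM (log2 change 0.16 with SE 0.17, adjusted p = 0.783). The lactate transporter Slc16a1, at 266, 185, 469 and 358 CPM (0.86 with SE 0.20, adjusted p = 0.134), and the taurine transporter Slc6a6, at 815, 1036, 522 and 592 CPM (-0.71 with SE 0.15, adjusted p = 0.0893), had the smallest p of the list, in opposite directions. Slc3a2 was at 676, 440, 747 and 592 CPM. Of 17 genes of Wnt signalling, the pathway that sets up the barrier, 0 were called (median 0.06). Adgra2 and Foxf2 had log2 fold changes of 0.69 and 0.53, and Sox17 of -0.60; Ctnnb1, Foxq1 and Lef1 lay between -0.25 and 0.13. Of 8 caveolae genes 0 passed (median -0.24), with Plvap lowest in homozygous brain 1 and highest in homozygous brain 2, and Cav1 at 221, 318, 146 and 211 (adjusted p = 0.387). Cavin3, Cavin1, Cavin2 and Ehd4 had log2 fold changes of 0.64, -0.28, -0.21 and 0.02, and Cavin3 had the smallest p of the list (adjusted p = 0.0899).

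In signalling between neighbours, Smad1, a transducer of BMP signals, rose from 83.1 and 75.6 to 183 and 167 CPM (log2 change 1.05 with SE 0.16, adjusted p = 0.0445), and it was the only call among 17 BMP and TGF-beta genes (median -0.05, 8 positive). Id1, a target of BMP signalling, was at 1034, 1259, 719 and 653 CPM (-0.73 with SE 0.13, adjusted p = 0.0648) and did not pass. Id3, Eng and Bmpr2 were at -0.36, 0.34 and -0.12. Of 11 Notch genes 0 passed (median 0.16, 9 positive); Dll4, the Notch ligand of tip cells, was at 42.8, 24.8, 104 and 62.3 CPM (1.08 with SE 0.29, adjusted p = 0.197) and the Notch target Nrarp at 37.3, 25.9, 75.6 and 121 CPM (1.36 with SE 0.26, adjusted p = 0.0696). Notch1, Hes1 and Jag2 were at 0.16, -0.12 and 0.81.

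Position along the vessel was read from arterial, capillary and venous lists. A UMI of at least 1 gene of the list was found in 85.7, 93.6, 84.7 and 87.8% of the members for the arterial list, 97.1, 91.0, 91.8 and 95.1% for the capillary list and 95, 96.2, 97.6 and 97.6% for the venous list, and 76.5 to 82.9% had all 3. At this depth the lists did not split the members into 3 kinds. Thinning to 8000 corrected UMIs left out no cell, since after the authors' correction every member held 9864 to 15695 UMIs. It gave 80.0 to 92.3, 87.2 to 96.4 and 92.1 to 97.6%. The correction had already brought cells of very different raw depth near a common total, so this thinning cannot show the part of raw depth. In summed level the venous genes came to 5603, 6069, 4625 and 4212 CPM and did not overlap between genotypes. Of 16 venous genes 15 had a negative log2 fold change (median -0.43), but 0 passed, and in the cells of 4307 to 17227 raw UMIs the median was -0.07 with 7 of 15 positive. Vcam1, an adhesion molecule for leukocytes, had the smallest p, at 494, 681, 285 and 297 CPM (-0.97 with SE 0.17, adjusted p = 0.0540). Lrg1 was at 814, 602, 553 and 500.1 CPM, Tmem252 at 644, 474, 904 and 526 and Vwf at 821, 995, 689 and 775. Arterial genes summed to 2699, 2691, 955 and 2111 CPM; homozygous brain 1 was the low brain. Mgp, the most abundant of them, was at 1974, 1437, 461 and 1129 CPM (adjusted p = 0.229), and Alpl, with the smallest p, at 91.1, 130, 26.8 and 56.2 CPM (adjusted p = 0.134). Gkn3, Stmn2 and Eln had log2 fold changes of -0.73, -1.11 and -1.05; 0 of 16 arterial genes passed (median -0.24). Of 7 capillary genes 0 passed (median 0.12). Mfsd2a, the lipid transporter of barrier capillaries, was at 46.5, 30.2, 143 and 64.3 CPM (1.16, adjusted p = 0.234), Spock2 at 605, 559, 1040.4 and 635, Rgcc at 575, 330.3, 198 and 382, Cxcl12 at 472, 546, 662 and 299 and Car4 at 215, 204, 190 and 239.

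**Figure D3:**
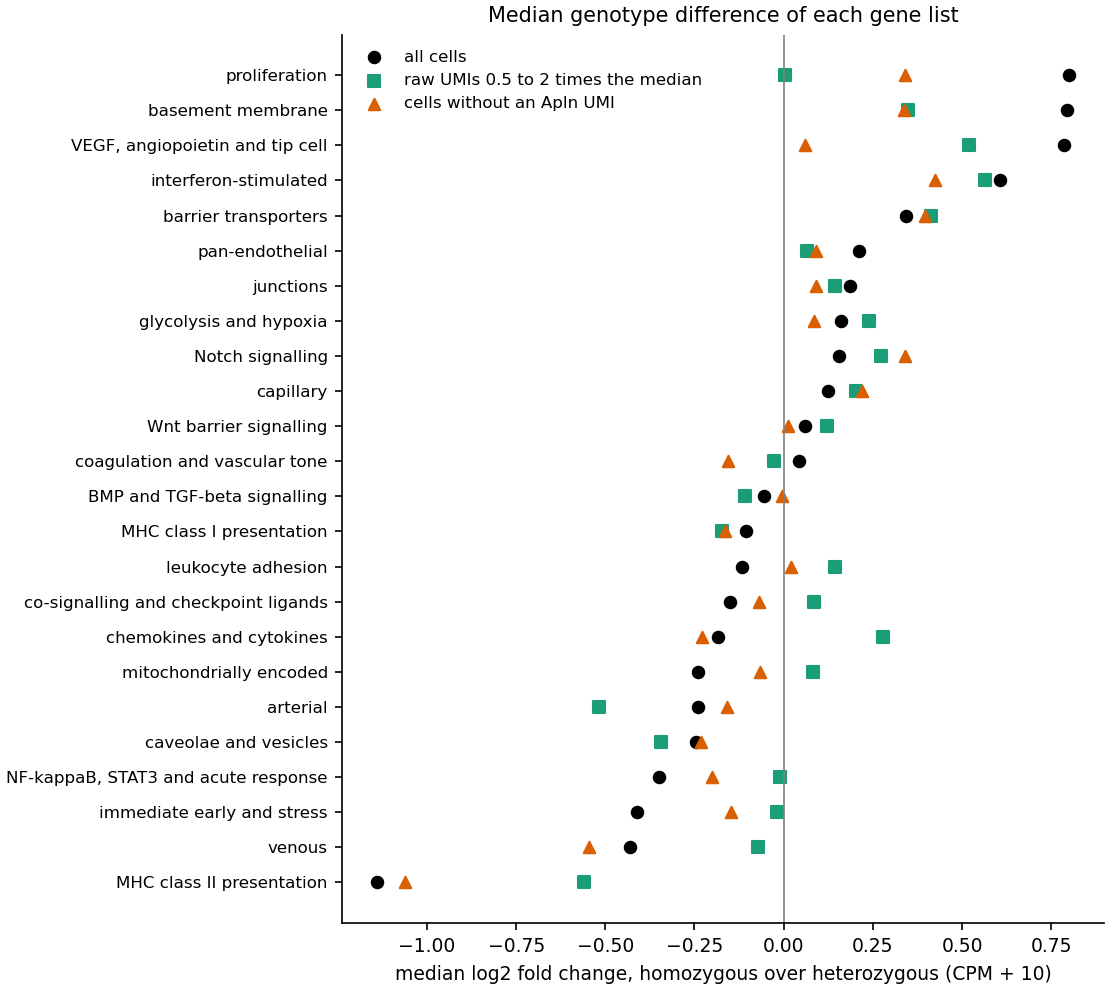
Median log2 fold change (homozygous over heterozygous, CPM plus 10) of the tested genes of each of the 24 pathway lists, for all endothelial cells (circles), for cells of 4307 to 17227 raw UMIs (squares) and for cells without an Apln UMI (triangles). Proliferation falls from 0.80 to 0.00 and the immediate early list rises from -0.41 to -0.02 between circles and squares, while the interferon-stimulated list goes from 0.61 to 0.57.

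None of the genes of the interferon, chemokine, MHC or NF-kappaB lists passed the test. Of 50 interferon-stimulated genes 47 were positive and 33 had homozygous brains above both heterozygous ones (22.8% of all genes tested did so). Their median was 0.61, yet 0 were called by limma, with 27 at an unadjusted p under 0.05. Among them, the membrane tether Bst2 was at 376, 480.3, 767 and 699 CPM (0.77 with SE 0.15, adjusted p = 0.0696), the RNA sensor Ddx58 at 37.9, 39.9, 92.8 and 86.4 (1.03 with SE 0.19, adjusted p = 0.0648) and Irf7, a transcription factor of the interferon response, at 84.4, 119, 258 and 189 (1.07 with SE 0.21, adjusted p = 0.0824). Ifitm3 (2498, 4041, 3659 and 3533 CPM) and Ifitm2 (987, 1200.2, 720 and 1069 CPM), the most abundant, overlapped. The median was 0.57 with 43 of 50 positive in the cells of 4307 to 17227 raw UMIs, 0.42 without the cells holding an Apln UMI and 0.34 without homozygous brain 1. Cxcl10, an interferon-induced chemokine, was at 121, 283, 648 and 215 CPM and overlapped (0.97 with SE 0.49, adjusted p = 0.512). Its UMIs were found in 13.6, 21.8, 31.8 and 19.5% of the members, below the 33.5% of the T cell cluster, and no Cxcl10 expression by endothelial cells is read from them. The median raw UMIs of the T cell cluster were 5409, against 8614 in endothelial cells. The other chemokines and cytokines, 13 tested with Cxcl10, gave 0 calls (median -0.18). In the cells of 4307 to 17227 raw UMIs their median turned to 0.28, with 9 of 13 positive. Among them were Cxcl2 at 213, 49.6, 112 and 189 CPM, Cxcl9 at 80.7, 54.0, 187 and 30.1 and Cxcl1 at 52.0, 75.6, 36.4 and 42.2. Il33, an alarmin, was at 54.4, 17.3, 0 and 0 CPM (adjusted p = 0.0690).

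Lgals9, the ligand galectin 9, rose from 127 and 125 to 311 and 251 CPM (log2 change 1.09 with SE 0.16, adjusted p = 0.0345) and was the only call among 10 co-signalling and checkpoint ligands (median -0.15). Cd200, Cd47 and Entpd1 lay at 0.12, -0.35 and -0.09, and Nectin2 at 1.13 (adjusted p = 0.0745). Of 15 leukocyte adhesion genes Cd34 and Mcam rose, as given above, and none fell (median -0.12). MHC class I genes gave 0 calls of 21 (median -0.11), with B2m at 1509, 2274, 1818 and 1701 CPM, H2-D1 at 1691, 2365, 1657 and 1828 and H2-K1 at 1218, 1826, 1380.1 and 1330; Calr, H2-T23 and Psmb9 were at 0.02, -0.33 and -0.51. All 4 tested MHC class II genes were negative (median -1.14), with Cd74 at 166, 352, 188 and 44.2 CPM (adjusted p = 0.433), H2-Ab1 at 58.7, 120, 71.8 and 14.1, H2-Aa at 48.9, 110, 63.2 and 22.1 and H2-Eb1 at 43.4, 93.9, 56.5 and 6.03; their genotypes overlapped. Of 22 NF-kappaB, STAT3 and acute response genes 18 were negative and 0 passed (median -0.35); in the cells of 4307 to 17227 raw UMIs 11 of 22 were positive and the median was -0.01. Socs3, a brake on STAT3, was at 635, 407, 142 and 231 CPM (-1.44 with SE 0.26, adjusted p = 0.0629), Ptgs2 at 452, 593, 312 and 213 (-0.98, adjusted p = 0.0899) and Nfkbia at 1385, 1460.3, 1148 and 1171 (-0.29, adjusted p = 0.356).

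The 8 genes that fell included early response genes. Ier3 fell from 1351 and 1469 to 574 and 615 CPM (log2 change -1.23 with SE 0.11, adjusted p = 0.00687), and Gadd45g, a stress response gene, from 537 and 480.3 to 123 and 157 CPM (-1.80 with SE 0.16, adjusted p = 0.00636). Both stayed clear of overlap. Of 24 immediate early and stress genes, a list that also marks enzyme digestion of tissue, 21 were negative and Ier3 alone fell (median -0.41); Fos, Jun, Junb and Klf2 were at -0.67, -0.66, -0.51 and -0.14. That median was -0.02 in the cells of 4307 to 17227 raw UMIs. Malat1, a nuclear RNA, fell from 16510.0 and 19049 to 9937 and 10488 CPM (-0.80 with SE 0.10, adjusted p = 0.0269), and was at -0.23 in those cells. Edn1, endothelin 1, fell from 318 and 235 to 116 and 121 CPM (-1.15 with SE 0.18, adjusted p = 0.0417) and was at -1.51 in the same cells. Edn1 was the only call among 17 genes of coagulation and vascular tone (median 0.04); Anxa2 was at 0.53 and Klf4 at -0.13. Apod, a lipid carrier, fell from 864 and 806 to 471 and 500.1 CPM (-0.77 with SE 0.12, adjusted p = 0.0417), with 60.2% of its UMIs in 1 cell in homozygous brain 2. Its log2 fold change was -0.16 without the cells holding a UMI of Dcn or Col1a2.

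The 3 other falls were genes that fibroblast-type cells are known to express, and 2 of them, Dcn and Col1a2, stand in the fibroblast marker list. Dcn, decorin, stood at 168, 284, 1.91 and 10.0 CPM (log2 change -3.89 with SE 0.32, adjusted p = 0.00524), but its UMIs lay in 12, 3, 2 and 2 cells. In heterozygous brains 1 and 2, 1 cell each held 61.8 and 96.6% of the Dcn UMIs. Col1a2 stood at 47.7, 59.4, 9.57 and 4.02 CPM (adjusted p = 0.0309) in 18, 15, 5 and 2 cells, and Igfbp5 at 43.4, 56.1, 6.70 and 4.02 CPM (adjusted p = 0.0309) in 7, 8, 3 and 2. For Igfbp5, 1 cell each held 66.2 and 80.8% of the UMIs in heterozygous brains 1 and 2. Of the 7 fibroblast markers 5 were tested and all were negative (median -1.49). The part of fibroblast RNA in these 3 falls was not tested. Without the cells holding Dcn or Col1a2, 51 genes passed in all.

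Glycolysis and hypoxia genes gave 0 calls of 16 (median 0.16, 15 positive), with Pkm at 408, 386, 675 and 619 CPM (0.69 with SE 0.12, adjusted p = 0.0629), Gapdh at 803, 668, 1022 and 1012 (0.47, adjusted p = 0.197) and Ldha at 425, 449, 541 and 550.3 (0.31, adjusted p = 0.383). The 13 mitochondrially encoded genes were all negative with 0 calls (median -0.24); mt-Atp6, mt-Co3, mt-Co2, mt-Co1 and mt-Nd5 lay between -0.51 and -0.15. In the cells of 4307 to 17227 raw UMIs 12 of the 13 were positive and the median was 0.08.

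Whether the genotype difference was particular to endothelial cells was tested against the microglia cluster of the same brains (390, 144, 85 and 35 cells). Among 6528 genes tested in both, 1 gene, 0.0153%, had a genotype effect that differed, namely Plac8, and 496 had an unadjusted p under 0.05. Of the 40 genes called in endothelial cells 22 were tested in it and none passed, with Sox4 nearest (adjusted p = 0.327). No endothelial call was therefore shown to be particular to endothelial cells. A comparison with the other cells of cluster 6 was not run, since 2 brains held only 12 and 16 of them.

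Cells with an Apln UMI differed from the other endothelial cells of the same brain, as a description that rests on cells picked by that gene. They numbered 22 in homozygous brain 1 and 8 in homozygous brain 2. Their median raw UMIs were 40127 and 34432, against 8706 and 7661 in the other cells of these brains, and 3 and 0 of them lay between 4307 and 17227, so depth and the Apln signal cannot be told apart. Angpt2 stood at 660.2 and 475 CPM in the cells with an Apln UMI and at 50.9 and 10.4 CPM in those without, Aplnr at 328 and 242 against 28.1 and 20.7, and Pdlim1 at 664 and 762 against 77.7 and 90.6. Col4a1 stood at 2671 and 2035 CPM against 505 and 668. The histone gene Hist1h2ap and the nucleotide synthesis genes Rrm2 and Tyms had log2 ratios of 5.05 and 3.77, 2.94 and 2.99, and 3.45 and 2.58. A UMI of Top2a, Mki67 or Cdk1 was found in 68.2 and 75% of the cells with Apln, against 20.6 and 27.3% of the others.

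Early response genes lay the other way in those cells. Fos stood at 87.1 and 350 CPM in cells with an Apln UMI and at 2627 and 3106 CPM in the others, Zfp36 at 43.6 and 53.8 against 876 and 981, and the flow-responsive factor Klf2 at 258 and 215 against 2295 and 2278. Other genes were lower with Apln as well. Ctss stood at 6.70 and 0 against 178 and 360 CPM, Il1b at 3.35 and 0 against 92.4 and 140, and the mural gene Acta2 at 0 and 0 against 54.9 and 282. The part of RNA from other cells in these differences was not tested. Cldn5 differed little in homozygous brain 1 (4588 against 4528 CPM) and was higher with Apln in brain 2 (5900.1 against 2992). Slco1a4 was lower with Apln in both, at 80.4 against 1451 and 574 against 795 CPM. UMIs of Rgs5 or Vtn were found in 18.2 and 12.5% of the cells with Apln and in 50.8 and 42.4% of the others, and a Krt8 UMI in 2 of the 35 cells with Apln over all brains. The depth correction lowers the counts of deep cells, and 30 of the 35 cells with Apln were deep. The shares with and without Apln therefore cannot be compared. They do not show that the cells with Apln held less RNA of other cells. Leaving out these 35 cells, which were picked by 1 of the 40 called genes, is not an independent check of the calls. Without them 36 of the 40 genes were tested and none passed, while Apln, Nts, Pclaf and Dbn1 were not tested. The log2 fold change of Pdlim1 was then 1.33 in place of 2.61, that of Upp1 1.29 in place of 1.96, that of Gadd45g -1.49 in place of -1.80, that of Col4a1 0.66 in place of 1.35 and that of Top2a 0.42 in place of 1.56.

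**Figure D4:**
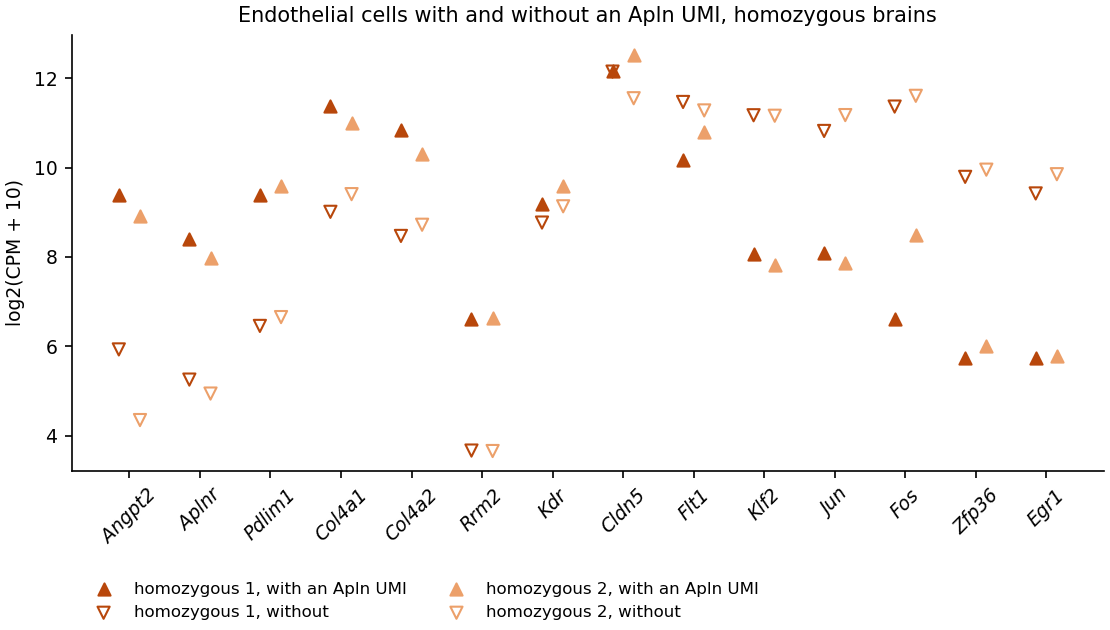
Level (log2 of CPM plus 10) of 14 genes in the summed endothelial cells with an Apln UMI (filled, pointing up) and without (open, pointing down) in each homozygous brain. Angpt2, Aplnr, Pdlim1, Col4a1, Col4a2 and Rrm2 are higher and Klf2, Jun, Fos, Zfp36 and Egr1 lower with Apln in both brains.

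In naive brains the same rule, applied to the naive cluster highest in the endothelial genes, gave 112 cells: 29, 30, 16 and 37 in heterozygous brains 1 and 2 and homozygous brains 1 and 2. The 2 tables were corrected for depth separately, so levels are set side by side with no test. Esm1 stood at 552 to 989.9 CPM in naive and 58.4 to 176 CPM in metastasis-bearing brains, Plvap at 1456 to 2157 against at most 619, and Cx3cl1 at 84.2 to 109 against 32.5 to 43.4. Vwf stood at 234 to 417 in naive and 689 to 995 in metastasis-bearing brains, and Ctla2a at 594 to 813 against 1411 to 4124. The naive and metastasis-bearing ranges of these genes did not overlap. The share of all genes without such overlap is not given, so this describes the named genes only. Whether both sets of cells came from the same kinds of vessel was not tested. Cldn5 and Flt1, genes of the rule, did not overlap either. Cldn5 stood at 1445 to 2605 in naive against 2896 to 4545 CPM, and Flt1 at 2972 to 3783 against 2135 to 2424. Slco1a4, outside the rule, stood at 395 to 695 in naive against 745 to 1097 CPM and did not overlap. The naive members also differed by brain in Ackr1 (1126, 50.5, 0 and 14.1 CPM) and in Rgs5 (44.6 to 1456 CPM).

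Of the 32 genes that rose with homozygous loss, 27 had both homozygous metastasis-bearing brains above all 4 naive brains, and 3 had both heterozygous ones above them. The 32 genes were chosen by their genotype difference in the metastasis-bearing brains, so these 2 counts describe the choice and test nothing. The same counts over all genes are not given. Pdlim1 stood at 0 to 28.2 CPM in naive brains, near the 26.9 and 36.7 of the heterozygous metastasis-bearing ones and far under the 245 and 241 of the homozygous. Col4a1 stood at 761 to 986 CPM in naive brains, so the heterozygous metastasis-bearing brains, at 443 and 369, lay below the naive range while homozygous brain 1 lay above it and brain 2 within it. Ier3 stood at 586 to 855 CPM in naive brains, below the heterozygous 1351 and 1469, and Gadd45g at 259 to 448, between the genotypes. For these 2 genes the heterozygous metastasis-bearing brains lay above the naive range. Cells per naive brain were few, and Apln was at 0 in 3 of the 4 naive brains and at 16.7 CPM in the fourth.

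**Figure D5:**
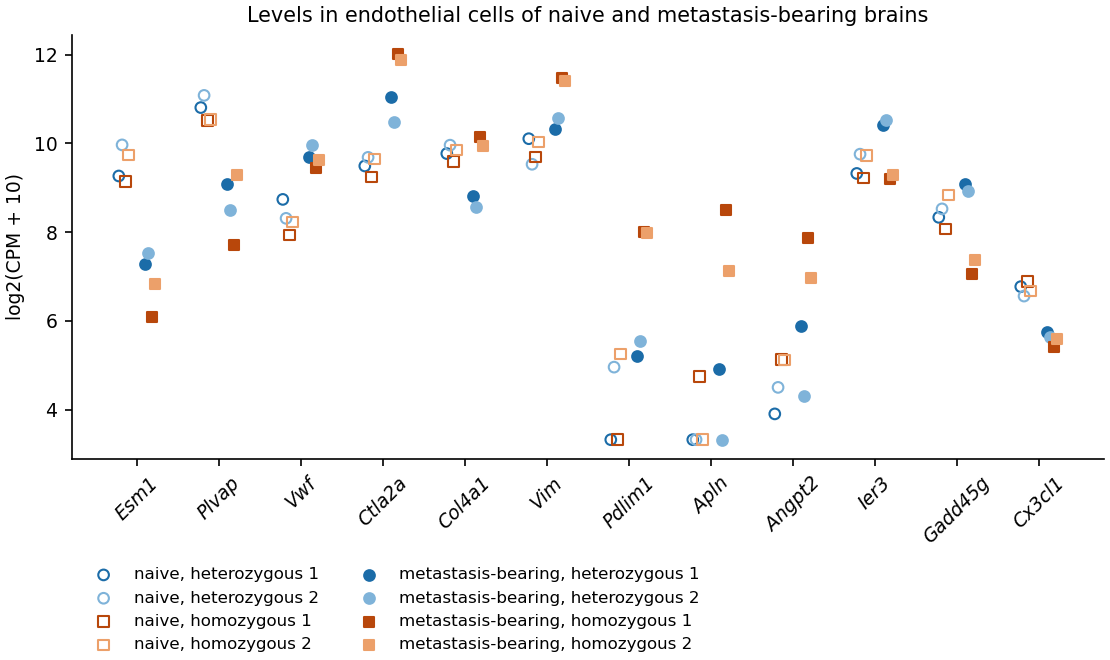
Levels (log2 of CPM plus 10) of 12 genes in endothelial cells of the 4 naive (open) and 4 metastasis-bearing (filled) brains, with circles for heterozygous and squares for homozygous brains. Esm1 and Plvap are lower in every metastasis-bearing than in every naive brain, while Pdlim1 is high in the homozygous metastasis-bearing brains alone among the 8.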

How the data were processed

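Per the submitters' processing notes, Cell Ranger 3.1, Seurat 3.1.1 and the build mm10 were used. The authors deposited RNA values as the natural log of 1 plus a depth-corrected UMI count, corrected separately for metastasis-bearing and naive brains; the exponential minus 1 was whole for 100% of nonzero values (relative tolerance 1e-06). Raw UMIs and tag UMIs per cell were deposited as counts. The authors' hashtag margin, a score, had medians of 1.83 to 3.31 in the members. Cells carried the authors' singlet label, and no other doublet call was made.

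Members' corrected UMIs were summed per brain (497891 to 1636034), scaled to 1000000 (CPM) and tested as log2(CPM + 10) with limma 3.58.1 in R 4.3.3 (eBayes with a trend) over genes above a mean of 10 CPM, homozygous minus heterozygous, at a Benjamini-Hochberg adjusted p under 0.05. Each brain is 1 replicate. The limma step alone was tested on simulated data, as sums per brain drawn around a common profile. Those data held no single cells, so neither UMIs gathered in few cells nor a difference in cell depth was part of that test. Shares used exact permutation tests (scipy 1.17.1), with exact Clopper-Pearson intervals computed for cells with a UMI. The Krt8-high cells are clusters 0 and 9; cluster 9 held 7 used cells.

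Members, the 24 pathway and 17 marker lists and the tests were chosen with earlier results of these data known. Genes were named by a rule: Cx3cr1, Cxcl10 and Cx3cl1; the genes of the selection; the 10 largest rises and falls; of each pathway list the 4 highest in level, the 2 smallest p and every call; the 20 that set the cells apart; and the highest of each marker list. Others (Angpt2, Aplnr, Esm1, Adm, Irf7, Lamb1, Mki67, Vim and the genes of the cells with an Apln UMI) were named after their values were seen. Some items that the rule names are not reported here.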

Additional observations from a re-analysis of the deposited data

Results flagged for a closer look

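Plac8, a gene of monocytes and other myeloid cells, was the only gene whose genotype effect differed between endothelial cells and the microglia cluster: the homozygous minus heterozygous effect in endothelial cells, less that in the microglia cluster, was -2.82 on the log2 scale (SE 0.27, adjusted p = 0.0420, limma). In endothelial cells it stood at 33.6 and 80.9 CPM in the heterozygous and 15.3 and 14.1 CPM in the homozygous brains. In the microglia cluster it stood at 16.5 and 59.3 CPM against 116 and 102. The monocyte and macrophage markers, of which Plac8 is a member, summed to 246, 403, 150 and 141 CPM in endothelial cells, and their part in the difference was not tested.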

How the results depend on the processing

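The count of 40 genes called in endothelial cells was 26 with a pseudocount of 1, 21 above 50 CPM, 88 with no filter, 0 with no trend, 76 with all deposited barcodes, 0 with all cells of cluster 6, 114 where the endothelial mean was above the mural mean by at least 1, and 0 with raw UMIs between 0.5 and 2 times the median. With alternatives chosen after seeing the data it was 124 in members without a UMI of Rgs5 or Vtn and 0 in those without a UMI of Apln. With 1 brain left out it ranged from 2 to 261. A pseudocount of 50 gave 45, median-ratio scaling 31. Of the 40 genes, Gimap4 alone turned in sign, to -0.0739 with raw UMIs between 0.5 and 2 times the median.

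Against the microglia cluster the count of 1 was 0 with a pseudocount of 1 or no filter, 21 with a pseudocount of 50 and 6 above 50 CPM, and 2 to 10 with 1 brain left out. The difference in share of endothelial cells by genotype, -3.89 points, turned to 6.38 with cluster 6 as the denominator and ranged from -7.57 to -0.216 with 1 brain left out. The venous difference in cells with a UMI, 2.03 points, was 4.79 after thinning and 0.588 with raw UMIs between 0.5 and 2 times the median. The cause of these changes was not tested.

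No paired analysis was possible because the labels give the brains no replicate numbers shared between genotypes. With 41 to 140 cells and 2 brains per genotype, differences in genes of few cells rest on those cells. The comparison with the other cells of cluster 6 in place of the microglia cluster was not run, since 2 brains held under 20 of them.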

Other observations

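For 5 endothelial genes the 2 brains of 1 genotype lay farther apart than the genotype means; they were chosen after their values were seen. Gpihbp1, which anchors lipoprotein lipase on capillaries, stood at 149, 22.7, 138 and 311 CPM. The secretoglobin Scgb3a1 stood at 110, 31.3, 353 and 72.3 CPM. The duffy receptor Ackr1 was at 383, 619.5, 383 and 339 CPM, and the endothelial selectin gene Sele at 12.8, 75.6, 13.4 and 2.01. Pgf, a VEGF family ligand, was at 98.6 CPM in homozygous brain 1 and at 8.03 to 11.6 in the other three. None of them passed the genotype test.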
